A study of Mus musculus with 30 samples.

Results

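The genes described here are 10 members of the hypoxia pathway measured in mouse liver: the transcription factor subunits Hif1a and Epas1, the iron-dependent prolyl hydroxylases Egln1, Egln2 and Egln3, and the target genes Vegfa, Bnip3, Ndrg1, Pdk1 and Ankrd37. They were chosen by name, from all non-control probes that the array files assign to these symbols, with no measured value in the rule. The 10 genes were covered by 15 probes, and they make up 10 of 21071 genes that passed the filter on dim signals. All 15 probes were well above background on all 30 arrays, and none was saturated on any array, so no member was lost to the filter.

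Liver RNA from 30 mice was hybridised singly to 1-colour Agilent whole mouse genome arrays. The mice were C57BL/6 (B6) or DBA/2 (D2), inbred strains without an introduced allele in the labels, and they were fed 1 of 3 diets that differed in iron: a balanced diet with 200 mg of iron per kg, an enriched diet with 8.3 g per kg, or a deficient diet with under 3 mg per kg. There were 5 mice in each of the 6 groups. The labels state no age, sex or time on the diet, and each label carries its own animal code, so a replicate is taken to be a mouse.

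The hypoxia pathway works through protein stability. In the presence of oxygen, iron and 2-oxoglutarate, the Egln enzymes hydroxylate prolines of the HIF alpha subunits, Hif1a and Epas1 (HIF-2 alpha), which the Vhl ubiquitin ligase then marks for degradation. When oxygen or iron is scarce the alpha subunits persist, pair with Arnt and bind DNA at short elements whose core is ACGTG or GCGTG. Because the enzymes carry an iron atom, dietary iron is a natural perturbation of this pathway, but an array reads transcripts and not HIF protein or enzyme activity.

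On this scale a level is the log2 of the quantile-normalized signal of the gene's brightest probe, and a difference is between group means of such levels, so 1 unit is a 2-fold change. Levels are compared between mice for 1 gene, never between genes. A change was called where limma's moderated test, adjusted by the Benjamini-Hochberg method over all 21071 genes, gave a value under 0.05. The 10 designed comparisons share groups, and the enriched and deficient diets are both set against the same balanced mice.

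Bmp6 served as a check of the diets. This gene, the liver ligand that drives expression of the iron hormone hepcidin, rose by 1.20 ± 0.06 (SE) on the log2 scale with enrichment and fell by 1.07 ± 0.06 with deficiency (limma adjusted p = 2.62e-13 and 1.76e-12). Hamp and Hamp2, the paralogous genes of hepcidin, both fell with deficiency, with log2 differences of -10.30 ± 0.60 and -7.18 ± 0.31 (adjusted p = 5.54e-12 and 8.32e-15). With enrichment Hamp2 rose by 2.20 ± 0.31 (limma adjusted p = 8.64e-05), while Hamp was not called. In D2 alone neither Hamp nor Hamp2 was called for enrichment. Hamp was well above background on 8 of 10 deficient arrays, and signal of such close copies may be shared between their probes. Of 8 hepatocyte markers 7 were tested. The log2 of their summed signal lay between 20.35 and 20.54 in B6 and between 20.13 and 20.33 in D2 mice. The strains did not overlap in this sum, in which the brightest markers weigh most. In D2 the enriched mice, at 20.13 to 20.19, lay below the deficient mice, at 20.26 to 20.33. With deficiency and with enrichment 0 of the 7 markers were called, and 1 was lower in enriched than in deficient mice. Arrays were scanned on 3 days that hold 5, 11 and 14 arrays; the first of these days has no enriched or deficient B6 mouse.

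Ankrd37 was the member with the widest differences between diets: it rose with iron deficiency and was lowest in the enriched mice of both strains. It encodes a small ankyrin repeat protein and is a known HIF-1 target. In B6 mice the 5 levels were 7.01, 7.64, 8.95, 7.94 and 8.06 on the deficient diet. On the balanced diet they were 5.14, 6.95, 6.40, 6.10 and 5.94, and on the enriched diet 5.12, 5.73, 5.06, 5.35 and 4.73. All 5 deficient B6 mice were above all 5 balanced ones, while enriched and balanced B6 mice overlapped because 1 balanced mouse sat at 5.14.

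In D2 mice the Ankrd37 levels were 7.06, 7.67, 6.86, 7.72 and 7.51 on the deficient diet. They were 6.29, 6.41, 7.39, 6.07 and 6.25 on the balanced diet and 5.36, 5.50, 5.84, 6.08 and 6.16 on the enriched diet. A balanced D2 mouse, at 7.39, reached into the deficient range, and the lowest balanced mouse, at 6.07, into the enriched range. In both strains together, 10 of 10 deficient mice exceeded the mean of the balanced mice of their own strain and 10 of 10 enriched mice were below it. The group means ran from 7.92 ± 0.71 (SD, n = 5) in deficient B6 through 7.36 ± 0.38 in deficient D2, 6.48 ± 0.52 in balanced D2, 6.11 ± 0.66 in balanced B6 and 5.79 ± 0.35 in enriched D2 to 5.20 ± 0.37 in enriched B6. Each neighbouring pair of groups in this order overlapped.

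**Figure D1:**
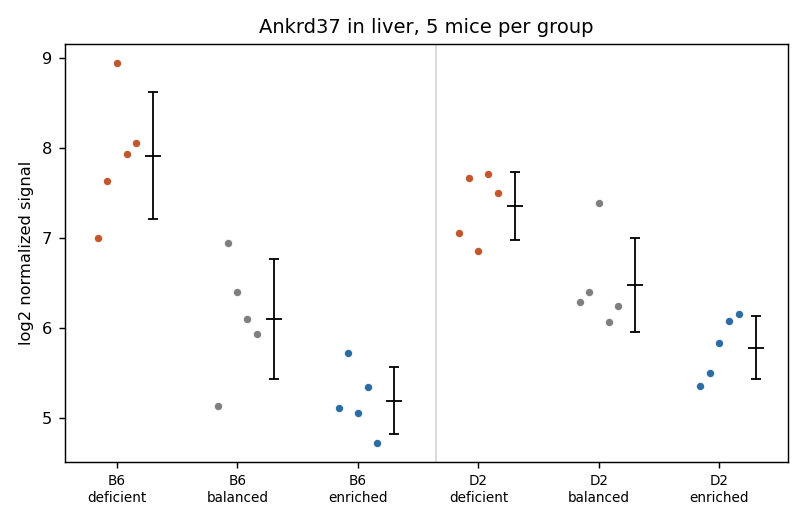
Log2 normalized signal of Ankrd37 (vertical axis) in each of 30 livers, by strain and diet (horizontal axis). Points are mice, and the black marks are the group mean with 1 SD. Deficient mice lie between 6.86 and 8.95 and enriched mice between 4.73 and 6.16, with no overlap in either strain.

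Averaged over strains, Ankrd37 was 2.54-fold higher on the deficient than on the balanced diet, a log2 difference of 1.35 ± 0.22 (SE; limma adjusted p = 0.000409). It was the only member called in that comparison, 1 of 10, where 8.08% of all genes were called. With enrichment the log2 difference was -0.80 ± 0.22, which did not pass (limma adjusted p = 0.0568), and 0 of 10 members were called where 2.23% of all genes were. That difference passed in 4 of 30 fits that left out 1 mouse each, those without the first balanced, the second enriched, the first deficient or the third deficient B6 mouse (lowest adjusted p = 0.0169). At an unadjusted p under 0.05, 3 of 10 members passed for enrichment, Ankrd37, Egln3 and Vegfa, beside 13.8% of all genes. At that threshold 3 of 10 passed for deficiency, beside 21.1%, and 6 of 10 between enriched and deficient mice, beside 20.1%. Between the ends of the iron range, enriched mice were 4.42-fold below deficient mice (log2 difference -2.15 ± 0.22, adjusted p = 2.75e-07). In that comparison 2 of 10 members were called, against 8.84% of all genes, the other being Egln1.

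Within B6 the enriched to balanced difference of Ankrd37 was -0.91 (adjusted p = 0.0956), and it passed only without the first balanced mouse (adjusted p = 0.0274). The response to deficiency was 1.81 ± 0.32 (adjusted p = 0.0026), the single member called of 10 where 1.79% of genes were. Within D2 it was 0.88 ± 0.32 (adjusted p = 0.116), and 0 of 10 members were called where 4.68% of genes were. Without the balanced D2 mouse at 7.39 the D2 difference was 1.11 and passed (adjusted p = 0.0474). The response was smaller in D2 than in B6 by 0.93 ± 0.45 on the log2 scale, with a 95% confidence interval from -1.85 to -0.01. That difference of responses did not pass (adjusted p = 0.693; 0 of 10 members, 0.019% of genes), so the strains were not shown to respond differently. The enriched to deficient difference was called in each strain, at -2.72 ± 0.32 in B6 (adjusted p = 1.96e-06; 1 of 10 members, 5.49% of genes) and -1.57 ± 0.32 in D2 (adjusted p = 0.0049; 2 of 10 members, 3.45% of genes).

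The estimated Ankrd37 rise on the deficient diet varied with the scan day, and whether the days differ was not tested. With scan day as a block it was 1.34 (adjusted p = 0.000247) and with slide as a block 1.15 (adjusted p = 0.00965). Within the day of 11 arrays it was 2.05 and within the day of 14 arrays 0.85, and neither passed. The day of 11 arrays held 1 balanced B6 mouse, at 5.14, the lowest of its group. The day of 14 arrays held 1 balanced D2 mouse, at 6.25. The enriched to deficient difference was -2.18 and -1.89 on these days (adjusted p = 0.0877 and 0.00361), and the enriched to balanced one -0.13 and -1.04 (adjusted p = 0.979 and 0.0372). Normexp background correction replaced the scanner's in another setting, with an offset of 50 that narrows log2 differences of low signals by an amount not tested. Ankrd37 levels were 4.73 to 8.95 in the main fit. The deficiency, enrichment and full-range differences were then 0.84, -0.37 and -1.21, smaller by more than 1.5 times, and the first and last still passed. In B6 alone the call was lost with slide as a block (1.45, adjusted p = 0.0925) and when only the 2 B6 groups entered the fit (1.81, adjusted p = 0.138).

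Genes whose levels followed Ankrd37 most closely over the 30 arrays, after each strain was centred on its own mean, were Tfrc (Pearson r = 0.86), Ube2e2 (0.85) and Grb10 (0.84). Tfrc, the transferrin receptor that brings iron into cells, fell by 1.48 with enrichment (adjusted p = 5.93e-08) and was 2.51 higher with deficiency (adjusted p = 3.61e-13). Ube2e2, a ubiquitin-conjugating enzyme, fell by 0.26 and rose by 0.32 in the same comparisons (adjusted p = 0.0353 and 0.00314). Grb10, an adaptor that dampens insulin receptor signalling, rose by 0.46 with deficiency (adjusted p = 0.00414). These correlations describe arrays that share the diets, and carry no test.

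**Figure D2:**
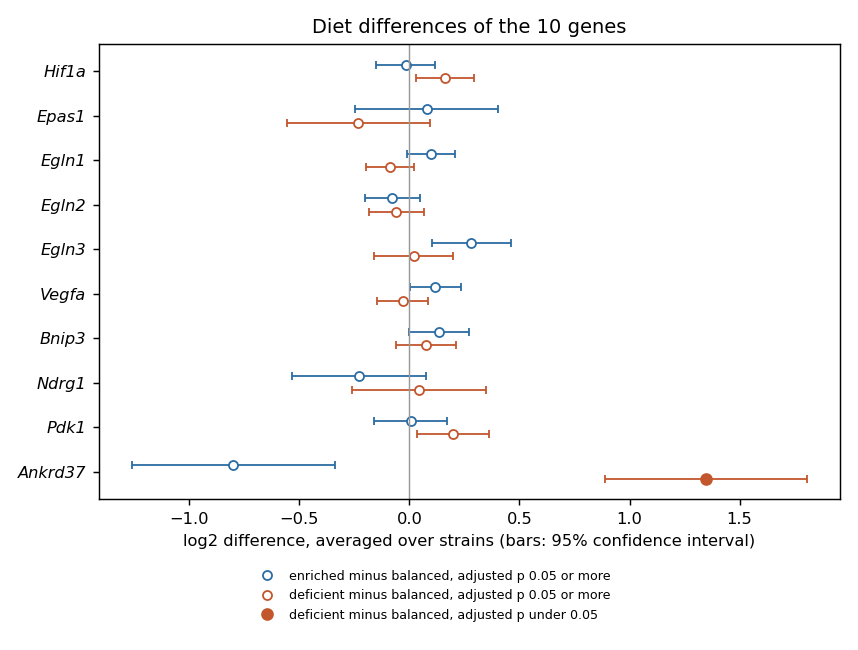
Log2 differences of the 10 genes between enriched and balanced (blue) and between deficient and balanced mice (orange), averaged over strains (horizontal axis), with 95% confidence intervals. The filled point is the single call, Ankrd37 at 1.35 with deficiency; the other 9 genes lie between -0.23 and 0.20 with deficiency.

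The 250 bases before the annotated start site were read for 8 of the 10 members, in 11 windows, from RefSeq on the GRCm38.p6 build. Both strands were searched for the HIF element cores ACGTG and GCGTG, and a core that was found is printed in capitals, so that CACGT and CACGC are cores of the opposite strand. Of the 11 windows 9 held a core. The same search found one in 38.6% of all 32851 promoter windows in the table and in 49.8% of the 15256 windows of genes tested here, so a core in such a window is common. Shown are the windows of the 3 members called in a diet comparison, and that of Bnip3, which held the most cores, 5, and was called in no diet comparison.
Ankrd37, chr8:45999851-46000100, minus strand: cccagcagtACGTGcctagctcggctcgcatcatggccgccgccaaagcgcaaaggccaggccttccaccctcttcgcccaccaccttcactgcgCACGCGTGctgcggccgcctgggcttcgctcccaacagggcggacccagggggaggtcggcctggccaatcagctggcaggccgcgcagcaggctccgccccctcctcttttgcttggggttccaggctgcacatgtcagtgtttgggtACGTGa
Egln1, chr8:124949255-124949504, minus strand: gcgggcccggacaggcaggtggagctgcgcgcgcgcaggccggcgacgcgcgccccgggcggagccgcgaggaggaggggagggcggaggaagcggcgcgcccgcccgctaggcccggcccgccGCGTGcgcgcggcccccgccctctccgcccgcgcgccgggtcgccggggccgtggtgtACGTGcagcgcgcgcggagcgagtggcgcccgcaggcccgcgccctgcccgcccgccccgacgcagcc
Egln3, chr12:54203875-54204124, minus strand: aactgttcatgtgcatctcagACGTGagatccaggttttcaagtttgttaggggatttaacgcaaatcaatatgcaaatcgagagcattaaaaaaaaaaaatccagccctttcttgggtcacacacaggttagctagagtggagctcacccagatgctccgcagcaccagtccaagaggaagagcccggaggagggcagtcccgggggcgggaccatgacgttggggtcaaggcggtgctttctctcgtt
Bnip3, chr7:138909507-138909756, minus strand: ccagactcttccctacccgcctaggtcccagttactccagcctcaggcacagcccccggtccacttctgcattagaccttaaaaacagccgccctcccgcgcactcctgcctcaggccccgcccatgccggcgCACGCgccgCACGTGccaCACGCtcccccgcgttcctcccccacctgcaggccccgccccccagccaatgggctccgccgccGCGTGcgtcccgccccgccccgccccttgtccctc
The Ankrd37 window held 4 cores: ACGTG at 241 and at 6 bases before the start, and a pair of GCGTG cores on opposite strands that overlap, at 155 and 152 bases before it. In the Egln1 window GCGTG lay 126 and ACGTG 68 bases before the start, and the Egln3 window had a single ACGTG at 229. Of the 5 cores of Bnip3, an ACGTG on each strand overlaps in the palindrome at 108 bases before the start. A match of letters describes the window and says nothing of whether HIF binds there.

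Of the HIF alpha subunits, neither was called for diet at its brightest probe, and the probes of Epas1 gave different results. Hif1a, whose protein is made in most cells and is controlled mainly by its degradation, had 1 probe. Its levels were 10.58, 10.62, 10.56, 10.70 and 10.59 in balanced B6 mice and 10.54, 10.66, 10.60, 11.01 and 10.82 in deficient ones. In D2 they were 10.55, 10.69, 10.56, 10.37 and 10.27 on the balanced and 10.59, 10.71, 10.62, 10.77 and 10.78 on the deficient diet. Of 10 deficient mice 8 exceeded the balanced mean of the same strain, and balanced and deficient mice overlapped in both strains. The Hif1a differences were 0.16 ± 0.07 for deficiency (adjusted p = 0.136) and -0.02 ± 0.07 for enrichment (adjusted p = 0.961), neither of which passed. Between enriched and deficient mice Hif1a gave -0.18 ± 0.07 (adjusted p = 0.0903), which passed only without the fifth enriched B6 mouse (adjusted p = 0.0419). In D2 the enriched mice, at 10.53, 10.59, 10.56, 10.38 and 10.49, all lay below the deficient ones, by the narrowest margin at 10.59, while in B6 these groups overlapped.

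Epas1 encodes HIF-2 alpha, which is prominent in endothelial cells and hepatocytes and drives many of the iron and erythropoietin genes of the pathway. It had 2 probes, one for a lung cDNA clone (A_52_P293443), which is the brighter, and one for the RefSeq transcript NM_010137 (A_51_P307954). They gave different results. At the clone's probe the deficient mice read 9.79, 10.04, 9.97, 9.90 and 10.09 in B6 and 9.95, 10.50, 10.56, 10.26 and 10.94 in D2. The balanced mice read 10.03, 10.48, 10.53, 9.26 and 10.31 in B6 and 10.59, 10.71, 10.70, 11.14 and 10.58 in D2. Groups overlapped, and the deficiency difference of -0.23 ± 0.16 did not pass (adjusted p = 0.438).

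At the RefSeq probe the deficient mice read 8.28, 8.44, 8.53, 8.54 and 8.53 in B6 and 8.23, 8.50, 8.04, 8.00 and 8.34 in D2. The balanced mice read 8.29, 8.23, 7.99, 8.19 and 8.12 in B6 and 8.01, 7.88, 7.96, 7.75 and 7.76 in D2. The enriched mice read 8.02, 8.01, 8.14, 8.10 and 8.11 in B6 and 7.85, 8.01, 7.84, 7.78 and 7.99 in D2. Deficient mice were the highest group in each strain at this probe, and in B6 all of them were above all enriched mice. With every kept probe tested on its own, a setting added after the data were seen, this probe rose by 0.33 ± 0.06 with deficiency (adjusted p = 0.0012) and the enriched to deficient difference was -0.36 ± 0.06 (adjusted p = 0.000248). The rise was 0.35 ± 0.08 in D2 (adjusted p = 0.0174) and 0.30 ± 0.08 in B6 (adjusted p = 0.0761).

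Over the 15 mice of a strain, the Epas1 probes were negatively related, with Pearson r = -0.37 in B6 and -0.29 in D2. The direction for Epas1 on the deficient diet therefore depended on which probe stood for the gene. Endothelial markers also shifted with deficiency, where 8.08% of all genes were called. Of 15 markers 7 rose, among them Flt1 (0.61), Emcn (0.38) and Pecam1 (0.31), and Oit3 fell (log2 difference -0.25). Between enriched and deficient mice 3 of the 15 were higher and 3 lower, where 8.84% of all genes were called. In B6 the log2 of the summed endothelial marker signal was 15.20 to 15.50 in balanced mice. It was 15.33 to 15.54 in deficient and 15.50 to 15.62 in enriched ones. In D2 the ranges were 15.04 to 15.14, 15.12 to 15.29 and 15.12 to 15.27, and none of the 15 markers was lost to the filter on dim signals. Of 10 stellate cell markers 3 rose with deficiency, Reln, Dcn and Colec11, while the median difference of the 10 was -0.02. The part of these markers in the Epas1 and Ankrd37 results was not tested, and in whole liver fewer cells of a type and less RNA per cell cannot be told apart.

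**Figure D3:**
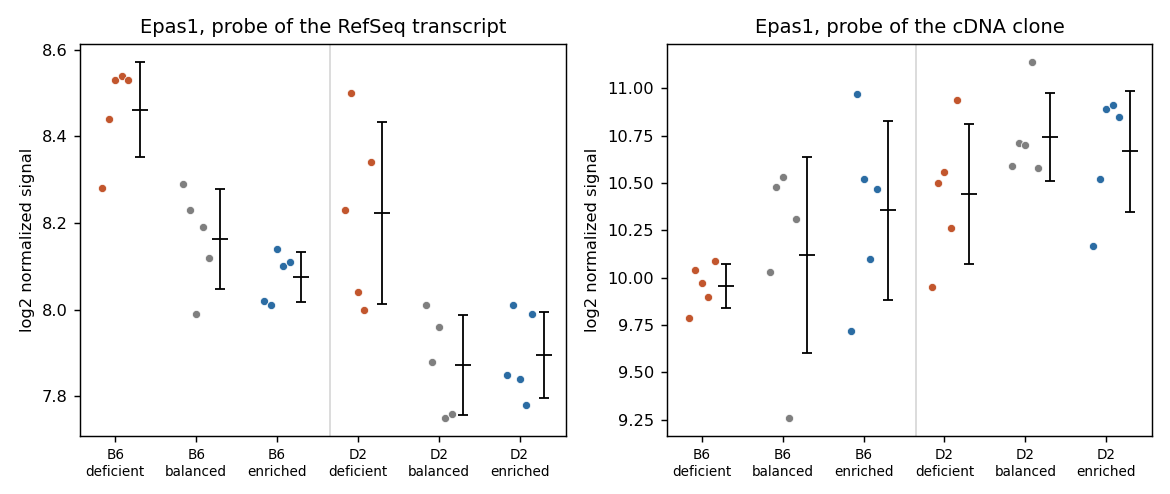
Log2 normalized signal of both Epas1 probes (vertical axes, which differ) in each of 30 mice by strain and diet (horizontal axes), with group mean and 1 SD in black. At the RefSeq probe the deficient means, 8.46 and 8.22, are the highest of each strain; at the clone's probe the deficient means, 9.96 and 10.44, are the lowest.

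Among the hydroxylases Egln1 was called higher in enriched than in deficient mice, and Egln3 higher in enriched than in balanced B6 mice. In B6 the deficient mean of Egln3, 9.96, also lay above the balanced mean, 9.74. Egln2 had no called diet difference. Egln2 (PHD1) ranged from 11.56 to 12.07 (median 11.77) in 15 B6 and from 11.52 to 11.94 (median 11.80) in 15 D2 mice, so the strains overlapped over nearly their whole range. It had enrichment and deficiency differences of -0.08 ± 0.06 and -0.06 ± 0.06 (adjusted p = 0.663 and 0.643). Egln1 (PHD2), the main oxygen-sensing isoform in most tissues, read 10.63, 10.61, 10.71, 10.75 and 10.90 in enriched D2 mice. In deficient D2 mice it read 10.40, 10.59, 10.28, 10.42 and 10.57. These groups did not overlap, and the balanced D2 mice, at 10.56, 10.71, 10.70, 10.59 and 10.37, lay across both.

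In B6 the enriched mice read 10.31, 10.43, 10.53, 10.38 and 10.37 for Egln1, the balanced 10.44, 10.33, 10.31, 10.28 and 10.36, and the deficient 10.26, 10.21, 10.20, 10.46 and 10.36, with overlap of all 3 groups. Averaged over strains, Egln1 was 1.14-fold higher in enriched than in deficient mice (log2 difference 0.19 ± 0.05, adjusted p = 0.0238), with 0.27 ± 0.07 in D2 (adjusted p = 0.0436) and 0.11 ± 0.07 in B6 (adjusted p = 0.547). A second Egln1 probe, for the same transcript, gave 0.06 ± 0.07 (adjusted p = 0.727). The mean of both probes gave 0.13 (adjusted p = 0.219), values with no normalization between arrays 0.08 (adjusted p = 0.547), and the call was lost in 3 of 30 fits that left out 1 mouse each, the third enriched B6, the fifth enriched D2 and the third deficient D2 mouse (highest adjusted p = 0.0528).

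Egln3 (PHD3), itself a HIF-induced gene, read 10.20, 10.34, 9.90, 10.14 and 10.33 in enriched B6 mice against 9.59, 9.85, 10.10, 9.43 and 9.72 in balanced ones. The enriched mice were higher apart from 1, at 9.90, that lay in the balanced range. The difference of 0.44 ± 0.12, or 1.36-fold, was the 1 call among 10 members for enrichment in B6 (adjusted p = 0.0287; 5.83% of genes). In D2 the enriched mice read 10.44, 10.44, 10.66, 10.61 and 10.52 and the balanced 10.48, 10.33, 10.66, 10.31 and 10.29, a difference of 0.12 ± 0.12 (adjusted p = 1), and 0 of 10 members were called there (0.0902% of genes). All 10 enriched mice lay above the balanced mean of their strain, but the averaged difference of 0.28 ± 0.09 did not pass (adjusted p = 0.0908), except without the third balanced B6 mouse (adjusted p = 0.0371).

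The B6 call for Egln3 was lost when only the B6 groups entered the fit (adjusted p = 0.152), without normalization between arrays (0.122) and in 6 of 30 fits that left out 1 mouse, with adjusted p up to 0.0921. Those mice were the first, the fourth and the fifth balanced and the first, the second and the fifth enriched B6 mouse. Its response to enrichment did not differ detectably between strains (D2 minus B6 -0.33 ± 0.17, 95% confidence interval -0.68 to 0.03, adjusted p = 0.487), and 0 of 10 members passed that comparison where 1.11% of genes did. Deficiency left Egln3 at 0.02 ± 0.09 relative to balanced mice (adjusted p = 0.937), which averages 0.22 in B6 and -0.18 in D2. That difference of responses, D2 minus B6, was -0.41 ± 0.17, with a 95% confidence interval from -0.76 to -0.05. It did not pass (limma adjusted p = 0.638). Between enriched and deficient mice Egln3 was not called, but passed in 5 of 30 fits that left out 1 mouse (lowest adjusted p = 0.0322).

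Most like Egln1 over the 30 strain-centred arrays were Invs (Pearson r = 0.82), Lztr1 (0.75) and Zfp294 (0.74). Most like Egln3 were Mest (0.77), Mgst3 (0.77) and Btbd1 (0.75). Of these 6 genes Lztr1, at 0.18 (adjusted p = 0.0346), and Mgst3, a microsomal glutathione transferase, at 0.65 (adjusted p = 0.0052), rose with enrichment, and none was called for deficiency.

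Besides Ankrd37, no target among the members was called for diet at its brightest probe. Vegfa, the growth factor of blood vessels, has a probe printed in 10 spots on each array, which were averaged. Its enriched mice read 12.67, 12.81, 12.72, 12.92 and 12.96 in B6 and 12.70, 12.85, 12.73, 12.81 and 12.84 in D2. The balanced mice read 12.69, 12.74, 12.75, 12.85 and 12.77 in B6 and 12.57, 12.57, 12.72, 12.75 and 12.44 in D2, so groups overlapped. The differences were 0.12 ± 0.06 for enrichment (adjusted p = 0.358) and -0.03 ± 0.06 for deficiency (adjusted p = 0.816).

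Pdk1, a kinase that turns off pyruvate dehydrogenase, read 11.57, 12.09, 11.61, 11.87 and 12.13 in deficient B6 mice and 11.52, 11.54, 11.28, 11.69 and 11.43 in balanced ones. The deficient mice were mostly higher, yet the groups overlapped, and the B6 difference of 0.36 ± 0.11 did not pass (adjusted p = 0.107). In D2 the Pdk1 deficiency difference was 0.03 ± 0.11 (adjusted p = 0.951). A second Pdk1 probe, for the clone AK165090, gave 0.27 ± 0.10 in B6 (adjusted p = 0.257) and was called in D2 with the opposite sign, -0.36 ± 0.10 (adjusted p = 0.0481).

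Bnip3, a mitophagy receptor, and Ndrg1, a stress-induced cytoplasmic protein, had no called diet difference either. For Bnip3 these were 0.13 ± 0.07 with enrichment (adjusted p = 0.369) and 0.08 ± 0.07 with deficiency (adjusted p = 0.571). Ndrg1 gave -0.23 ± 0.15 (adjusted p = 0.558) and 0.04 ± 0.15 (adjusted p = 0.911). Between enriched and deficient mice the other targets did not pass at their brightest probes. Vegfa gave 0.15 ± 0.06 (adjusted p = 0.11), Pdk1 -0.19 ± 0.08 (adjusted p = 0.15), Ndrg1 -0.27 ± 0.15 (adjusted p = 0.328) and Bnip3 0.06 ± 0.07 (adjusted p = 0.735). The second Pdk1 probe was higher in enriched D2 mice, with a mean of 10.94 against 10.54 in deficient ones. In B6 its means were 10.97 and 10.99. At that contrast Epas1 gave 0.31 ± 0.16 at the clone's probe (adjusted p = 0.278) and Egln2 -0.02 ± 0.06 (adjusted p = 0.933).

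Within the strains most members were likewise not called. For enrichment the B6 and D2 differences were -0.06 and 0.02 for Hif1a, 0.23 and -0.08 for Epas1, 0.06 and 0.14 for Egln1 and -0.12 and -0.04 for Egln2. Among the targets they were 0.06 and 0.18 for Vegfa, 0.18 and 0.09 for Bnip3, -0.26 and -0.20 for Ndrg1 and 0.16 and -0.15 for Pdk1. At their brightest probes Epas1 and Pdk1 thus had opposite signs in the strains, without a call in either. The RefSeq probe of Epas1 gave -0.09 in B6 and 0.02 in D2. The second Pdk1 probe had means of 10.97 in enriched and 10.72 in balanced B6 mice, and 10.94 and 10.90 in D2. Ankrd37 in D2 gave -0.69 for enrichment (adjusted p = 0.865). For deficiency the B6 and D2 differences were 0.12 and 0.21 for Hif1a, -0.16 and -0.30 for Epas1, -0.05 and -0.13 for Egln1 and -0.09 and -0.03 for Egln2. Those of Vegfa were -0.10 and 0.04, of Bnip3 0.10 and 0.05 and of Ndrg1 0.01 and 0.08. The RefSeq probe of Epas1 instead gave 0.30 and 0.35 for deficiency, called in D2 when every probe was tested. At an unadjusted p under 0.05, 2 of 10 members passed for enrichment in D2, beside 5.5% of all genes, and 2 of 10 for deficiency in D2, beside 17.7%. The difference of the enrichment responses, D2 minus B6, ran from -0.33 to 0.21 over the 10 members (lowest adjusted p = 0.463) and that of the deficiency responses from -0.93 to 0.14 (lowest adjusted p = 0.638). At an unadjusted p under 0.05 these were 0 and 2 of 10 members, beside 11.7% and 7.11% of all genes. None passed after adjustment, so no member was shown to respond differently in the strains.

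The median difference of the 10 members, averaged over strains, was 0.04 for enrichment and 0.03 for deficiency, beside 0.0079 and 0.00079 over all genes tested.

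Strain set more of the members apart than diet did. Averaged over diets, 5 of 10 members differed between D2 and B6, 4 higher and 1 lower in D2, where 50.1% of all genes differed, 25.9% higher and 24.2% lower, so this share is that of the background. Ndrg1 ranged from 11.06 to 12.64 (median 11.68) in 15 D2 mice and from 10.43 to 11.28 (median 10.97) in 15 B6 mice. It was 1.70-fold higher in D2 (log2 difference 0.77 ± 0.12, adjusted p = 5.76e-06), and the strains overlapped between 11.06 and 11.28. Bnip3 ranged from 15.37 to 15.88 (median 15.56) in D2 and from 15.77 to 16.23 (median 16.09) in B6. It was 1.36-fold lower in D2 (-0.45 ± 0.05, adjusted p = 7.3e-08), with overlap between 15.77 and 15.88.

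Egln3 lay between 9.81 and 10.66 (median 10.44) in D2 and between 9.43 and 10.34 (median 9.97) in B6, 1.35-fold higher in D2 (0.43 ± 0.07, adjusted p = 9.43e-06). Egln1 lay between 10.28 and 10.90 (median 10.59) in D2 and between 10.20 and 10.53 (median 10.36) in B6, 1.18-fold higher in D2 (0.24 ± 0.04, adjusted p = 3.79e-05), and its second probe gave 0.20 ± 0.06 (adjusted p = 0.00472). For both hydroxylases the strains overlapped in part. Epas1 was 0.47 ± 0.13 higher in D2 at the clone's probe (adjusted p = 0.00312) and 0.24 ± 0.05 lower at the RefSeq probe (log2 difference -0.24, adjusted p = 0.00019), so its direction between strains is not settled by these arrays. The remaining members, Hif1a, Egln2, Vegfa, Pdk1 and Ankrd37, were not called, with differences from -0.06 to 0.14. A second Vegfa probe, A_52_P638895, gave 0.29 ± 0.06 (adjusted p = 0.000128) where the probe of 10 spots gave -0.06 ± 0.05 (adjusted p = 0.26).

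Within the scan day of 11 arrays the strain differences were 0.85 for Ndrg1, -0.50 for Bnip3 and 0.53 for Egln3, and within the day of 14 arrays 0.71, -0.56 and 0.44, all 6 of which passed. Egln1 gave 0.22 and 0.13 (adjusted p = 0.0857 and 0.106) and Epas1 0.39 and 0.35 (adjusted p = 0.0833 and 0.27) on those days. Markers of other cells differed between the strains as well. Lower in D2 were 10 of 10 Kupffer cell, 12 of 15 endothelial and 3 of 5 cholangiocyte markers, beside 24.2% of all genes. Of 7 hepatocyte markers 2 were higher and 3 lower, beside 25.9% and 24.2% of all genes. The other lists did not lean lower to that extent. Of 10 stellate cell markers 2 were higher and 3 lower, of 4 erythroid markers 2 and 0, and of 9 lymphocyte markers 1 and 0. The log2 of the summed Kupffer marker signal ranged from 15.47 to 16.10 in D2 mice and from 16.00 to 17.02 in B6 mice. The part of the cell type markers in the strain differences was not tested. The probe sequences were not used here, so whether a strain variant lies under a probe was not tested.

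**Figure D4:**
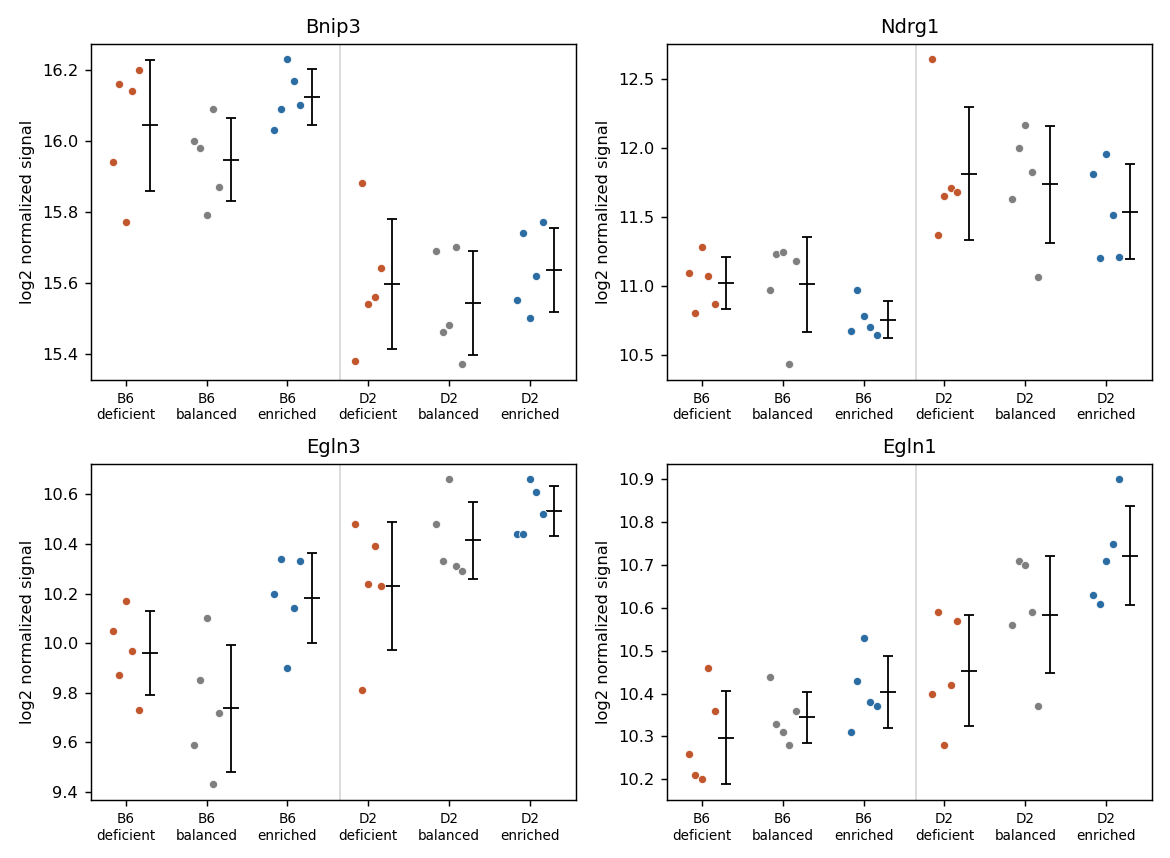
Log2 normalized signal (vertical axes) of Bnip3, Ndrg1, Egln3 and Egln1 in each of 30 mice by strain and diet (horizontal axes), with group mean and 1 SD in black. Bnip3 is lower in D2, by 0.45, and the other 3 genes are higher in D2, by 0.77, 0.43 and 0.24. Diet groups within a strain overlap for Bnip3, Ndrg1 and Egln3, and for Egln1 except enriched and deficient D2 mice.

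The rest of the pathway was read from 3 lists of genes. Of 19 partners and regulators of HIF, such as Arnt, Vhl and the asparagine hydroxylase Hif1an, 18 were tested. By limma 0 were called for enrichment and 0 for deficiency, and the list's median differences were -0.05 and 0.01. Between enriched and deficient mice Cul2, the scaffold of the Vhl ligase, was lower by a log2 difference of -0.30 ± 0.08 (adjusted p = 0.0222). Vhl itself gave -0.15 and 0.01 for enrichment and deficiency.

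Of 37 other HIF target genes 34 were tested, and 4 rose with deficiency while none fell, beside 8.08% of all genes called there. Tfrc rose by 2.51 ± 0.13 (adjusted p = 3.61e-13), Kdm3a, a histone demethylase, by 0.39 ± 0.08 (adjusted p = 0.00314), and the glycolytic enzymes Aldoa and Eno1 by 0.25 ± 0.07 and 0.23 ± 0.07 (adjusted p = 0.0278 and 0.0291). The list's median was 0.09 for deficiency and -0.0032 for enrichment, beside 0.00079 and 0.0079 over all genes. Tfrc is a HIF target whose message is also stabilised by the iron regulatory proteins when iron is scarce. With enrichment Tfrc, by -1.48 ± 0.13, was the 1 gene of the list called. Between enriched and deficient mice Tfrc, Kdm3a (-0.48 ± 0.08, adjusted p = 0.000224) and Eno1 (-0.28 ± 0.07, adjusted p = 0.00623) were lower.

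Other canonical targets of the same list did not pass with deficiency. Slc2a1, the glucose transporter, gave -0.19, Ldha, lactate dehydrogenase, 0.13, Pgk1, phosphoglycerate kinase, 0.07, and Bnip3l, a relative of Bnip3, 0.01. Erythropoietin (Epo) was not tested because its probes were well above background on at most 5 arrays. Between strains 6 of the 34 were higher and 17 lower in D2, beside 25.9% and 24.2% of all genes. The lower ones were led by Bnip3l (-0.93 ± 0.04), P4ha2 (-1.36 ± 0.10), Pgam1 (-0.45 ± 0.04) and Ccng2 (-1.14 ± 0.10), with adjusted p of 2.46e-16, 5.52e-12, 4.36e-11 and 1.28e-10. Their median of -0.20 lay below the -0.01 of all genes.

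Of 26 other dioxygenases that use iron and 2-oxoglutarate, among them collagen hydroxylases and histone and nucleic acid demethylases, 22 were tested. Kdm2b, a histone demethylase that binds CpG islands, was higher with enrichment (0.47 ± 0.07, adjusted p = 0.000184) and also with deficiency (0.22 ± 0.07, adjusted p = 0.0494), the single call in each. Between enriched and deficient mice Kdm2b was higher (0.25 ± 0.07, adjusted p = 0.0205) and Bbox1, which makes carnitine, lower (-0.23 ± 0.06, adjusted p = 0.00904). Between strains 9 of the 22 were higher and 8 lower in D2, beside 25.9% and 24.2% of all genes, the clearest being Alkbh2 (1.53 ± 0.07, adjusted p = 3.62e-16) and Fto (-0.69 ± 0.04, adjusted p = 7.22e-14), both of which remove methyl groups from nucleic acids.

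**Figure D5:**
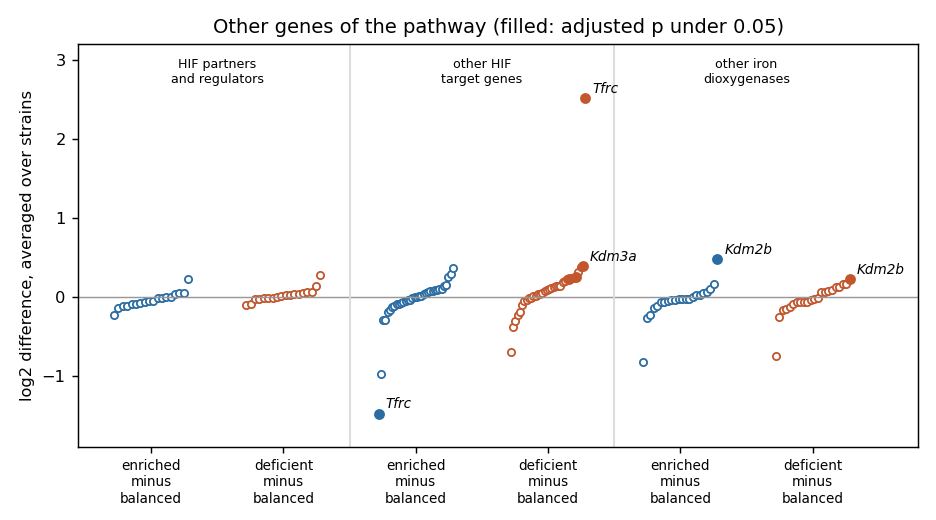
Log2 differences averaged over strains (vertical axis) of the tested genes of 3 further lists, for enriched (blue) and deficient (orange) against balanced mice (horizontal axis); each point is a gene and filled points were called. Tfrc is the widest, at -1.48 and 2.51, and Kdm3a, at 0.39, and Kdm2b, at 0.47 and 0.22, are labelled.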

How the data were processed

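Livers of 30 mice were profiled singly on 1-colour arrays. The deposited files hold, per the file headers, each spot's intensity after background subtraction and spatial detrending by Agilent Feature Extraction 9.1.3.1 (the labels name 9.5.1), with no normalization between arrays. The deposited value table holds the same intensity (largest difference 0; column medians 58.9 to 117).

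Outlier spots were dropped, spots of a probe averaged, arrays quantile-normalized, values floored at 13.9 and log2 taken of the deposited intensity. Probes well above background (62.5% to 78.4% per array) on at least 3 arrays of each strain were kept, 29985 in all, and the brightest stood for each of 21071 genes. limma 3.58.1 in R 4.3.3 fitted the 6 group means, with Benjamini-Hochberg adjustment at 0.05. The precision is limited by 5 arrays a group. Names came from the RefSeq GRCm38.p6 table for 22951 probes by accession and 6659 by symbol, and from the file for 11564. All 10 members were tested in every comparison. Their strain by diet differences are given as ranges, apart from that of Ankrd37 for deficiency and those of Egln3. Of other lists, up to 4 called genes of smallest p were named, and for 3 members the 3 genes most correlated with them. Members, lists and rules were chosen with earlier results of these data known. Other scalings, background corrections, filters, probe rules, batch terms and fits without a mouse were tried. The RefSeq-probe-first rule, the tests of every probe and the enriched to deficient comparisons within a strain were added after the data were seen. The fit was tested on simulated data.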

Additional observations from a re-analysis of the deposited data

Results flagged for a closer look

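In 4 of 60 groups of 5 mice examined, 1 mouse stood far from the other 4, with a gap to the nearest above 0.71 of the group's range; chance alone flags about 1 group in 20. For Ankrd37 the third balanced D2 mouse was highest at 7.39, the others lying between 6.07 and 6.41. For Epas1, at the clone's probe, the fourth balanced D2 mouse was highest at 11.14, above 10.58 to 10.71. For Ndrg1 the first deficient D2 mouse was highest at 12.64, above 11.37 to 11.71. For Egln2 the second balanced B6 mouse was lowest at 11.70, below 11.84 to 11.89. Leaving out each of these 4 mice in turn changed 2 member calls: Ankrd37 with deficiency in D2 passed without the balanced mouse at 7.39 (adjusted p = 0.0474), and Egln3 between enriched and deficient mice passed without the deficient mouse at 12.64 for Ndrg1 (log2 difference 0.29, adjusted p = 0.0373).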

How the results depend on the processing

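Of the 10 calls of members in the designed comparisons, all 10 kept direction and call under 75th percentile scaling, normexp background, both other filters, a floor of 1, scan day as a block and the methods' t-test (545 and 1816 genes after adjustment for enrichment and deficiency, 2998 and 4527 at an unadjusted p under the same threshold). The mean over probes, no normalization and fits of the compared groups alone each lost 2, and slide as a block lost 1. With the RefSeq probe first, Epas1 between strains turned from 0.47 to -0.24, with deficiency from -0.23 to 0.33 (0.35 in D2) and between enriched and deficient mice from 0.31 to -0.36, so 2 members were called for deficiency and 1 for deficiency in D2. With the mean over probes 1 member was called between enriched and deficient mice. For enrichment in B6, 0 members were called without normalization or with the compared groups alone. For deficiency in B6, 0 were called with slide as a block or the compared groups alone. Within the second scan day, of 11 arrays, 0 members were called in the diet comparisons and 3 between strains; on the third, of 14 arrays, there were 1 for enrichment, 1 between enriched and deficient mice, 0 for deficiency, 0 for deficiency in B6 and 3 between strains. Leaving out each mouse in turn gave 0 to 1 members for enrichment, 1 to 1 for deficiency, 1 to 3 between enriched and deficient mice, 0 to 1 for enrichment in B6, 0 to 0 in D2, 1 to 1 for deficiency in B6, 0 to 1 in D2 and 5 to 6 between strains. The cause of these changes was not tested, except that fewer samples enter the fits of compared groups and single days.

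Over all genes, calls for enrichment numbered 469, but 302 with slide and 806 with scan day as a block, and those for deficiency 1703, but 981 without normalization. The calls between enriched and deficient mice were 1863, but 1152 with slide as a block. Fits of single days left 1 mouse in some groups: balanced B6, enriched B6 and enriched D2 on the second day and balanced D2 on the third. Counts that use such a group rest on that mouse. For deficiency the second day gave 12, and between enriched and deficient mice the days gave 55 and 163. Within B6, the 1228 enrichment calls became 713 without normalization, 328 with the compared groups alone and 17 and 308 on the later days; the 378 deficiency calls became 65 with slide as a block, 24 with the compared groups alone and 12 and 8 on those days. Within D2, the 19 enrichment calls became 133 without normalization, 12 with a floor of 1 and 0 with the compared groups alone. The 986 deficiency calls there became 452 without normalization, 296 with the compared groups alone and 3 on the second day. Other counts of D2 diet calls within a day are not given, because a compared group then held 1 mouse. Between strains the second day gave 6140 of 10562. The 234 genes whose enrichment effect differed by strain became 894 without normalization and 365 with scan day as a block. The 4 for deficiency became 0 with slide and 9 with scan day as a block. Without normalization the median gene shifted by -0.10 between enriched and deficient mice and -0.17 between strains, and the split of calls became 266 higher to 1520 lower and 3166 to 7895, against 987 to 876 and 5460 to 5102 with quantiles. The enrichment split was then 86 to 261 and the deficiency split 682 to 299, against 256 to 213 and 819 to 884 with quantiles. No paired analysis was possible because replicate numbers follow the order of the samples and pair no mice across groups.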

Other observations

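The fourth balanced B6 mouse was at an end of its group of 5 for 8 of the 10 members, more than any other of the 30 mice, which ranged from 0 to 7. It was the highest of its group for 4 members and the lowest for 4, among them Epas1 at the clone's probe (9.26), Egln3 (9.43) and Ndrg1 (10.43). The fifth balanced D2 mouse was the lowest of its group for 7 members and the highest for none. These counts were made after the values were seen.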
